A study of Sus scrofa with 12 samples.

Results

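Metallothionein MT1A and 3 other genes of zinc handling, MTF1, SLC30A1 and SLC39A14, were followed in the liver RNA of Hezuo and Bama pigs. The genes were picked by symbol with results of these data already in view, so their levels and differences are given below as a description, with no test. Of 21169 rows in the gene table, 3 carried the symbol MT1A, MTF1 or SLC30A1, and none carried SLC39A14. That gene was read from 1 row whose symbol is PPP3CC but whose description is that of SLC39A14. Of 24177 circular RNAs (circRNAs, closed RNA loops made when a later exon end joins an earlier exon start), 6 were assigned to MT1A, 3 on the strand of the gene and 3 on the opposite strand.

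The study set a breed kept in a cold highland region of China (Hezuo) beside a miniature breed from the south of that country (Bama), to look for RNAs tied to resistance to cold. The 4 groups of 3 pigs each were Hezuo pigs in the cold (-15 ± 2 °C), Hezuo pigs at room temperature (23 ± 2 °C), Bama pigs in the cold and Bama pigs at room temperature, all sampled on day 15. The labels number separate pigs and give no sex, age or genotype beyond the breed. Gene counts totalled 20041285 to 30188037 per library and back-splice counts, the reads that cross a circRNA's junction, 39117 to 75616.

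Metallothioneins are small, cysteine-rich proteins that bind zinc and copper, and the liver is a main site of their production. MTF1 is the transcription factor that senses free zinc and switches on metallothionein genes and SLC30A1, which exports zinc across the plasma membrane. SLC39A14 brings zinc, iron and manganese into hepatocytes, and its RNA is known to respond to interleukin-6 in mouse liver. Glucocorticoids, fasting and inflammation are also known to raise hepatic metallothionein in mammals.

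Several facts of the libraries bear on what follows. The summed level of 8 hepatocyte markers was 59967 to 134196 CPM (counts scaled to library size by TMM) in Hezuo cold, 142639 to 161563 in Hezuo room, 33176 to 91241 in Bama cold and 105536 to 114976 in Bama room. All 8 were detected, as the tissue label requires. Most of that sum was ALB, the albumin gene, with means of 72866, 122711, 34824 and 81738 CPM in the same order of groups. The other 7 markers summed to 28062 to 33848 CPM in Hezuo cold, 29181 to 34876 in Hezuo room, 20412 to 26461 in Bama cold and 26439 to 28202 in Bama room. Of the 8, 4 (ALB, TTR, SERPINA1 and AHSG) had a lower mean in the cold in both breeds. APOC3 and FGB had a higher mean in the cold in both breeds, and APOA1 and APOA2 moved in opposite directions between the breeds. The summed level of 5 erythroid markers reached 20957 CPM in Hezuo cold, 14802 in Hezuo room, 3605 in Bama cold and 5298 in Bama room, with lowest values of 2308, 4459, 234 and 1394 CPM in the same order. RNA of the Y-linked gene DDX3Y was present in 3 of 3 Hezuo cold, 3 of 3 Hezuo room, 2 of 3 Bama cold and 0 of 3 Bama room libraries, so breed at room temperature and Y-linked RNA cannot be told apart. The part of these differences in the results below was not tested beyond a fit with DDX3Y as a covariate. Y-linked RNA varied within Bama cold alone. The covariate is therefore estimated from the 3 Bama cold libraries, 2 of them with that RNA. In bulk liver, fewer cells of a type and less RNA per cell cannot be told apart.

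MT1A RNA was more abundant in Hezuo livers at both temperatures, and its difference between cold and room was smaller than its SE in either breed. The row (ENSSSCG00000023684) had 3640, 4252 and 4323 CPM in Hezuo cold and 4845, 4755 and 4005 CPM in Hezuo room, against 2145, 2356 and 1396 CPM in Bama cold and 1991, 1926 and 2072 CPM in Bama room. Every Hezuo library lay above every Bama library, a pattern that 4.25% of the 13532 genes tested showed in one direction or the other and 2.11% showed with Hezuo higher.

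The means were 4072 ± 376 CPM in Hezuo cold, 4535 ± 461 in Hezuo room, 1966 ± 504 in Bama cold and 1997 ± 73.2 in Bama room (SD, n = 3 each). From high to low, the order of the groups was Hezuo room, Hezuo cold, Bama room and Bama cold. The neighbours of 1 breed overlapped and the step between the breeds did not. The log2 fold change of Hezuo over Bama was 1.05 ± 0.20 (SE) in the cold, a 2.07-fold difference, and 1.18 ± 0.20 at room temperature, a 2.27-fold difference. For cold over room it was -0.16 ± 0.20 in Hezuo and -0.02 ± 0.20 in Bama, and the difference between these responses was -0.13 ± 0.28. A fit with DDX3Y as a covariate, which varied within Bama cold alone, was also run. Hezuo over Bama was then 1.20 in the cold and 1.60 at room temperature, and cold over room in Bama was 0.24. These values rest on the split of the 3 Bama cold pigs and are no adjustment for sex. Scaled by library totals alone, which moved the median of all genes to 0.04 in Hezuo and 0.14 in Bama, cold over room was -0.10 in Hezuo and 0.13 in Bama.

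Scaled to transcript length, MT1A was among the most abundant RNAs of the liver. Its deposited FPKM (fragments scaled to transcript length and library size) averaged 7615 in Hezuo cold and 8385 in Hezuo room, rank 6 of 21169 rows in both, against 5021 in Bama cold (rank 10) and 4763 in Bama room (rank 9). The FPKM values were 6773, 8474 and 7598 in Hezuo cold, 8847, 8953 and 7354 in Hezuo room, 5243, 6524 and 3295 in Bama cold, and 4995, 4048 and 5246 in Bama room. On this scale the lowest Hezuo library (6773) stood narrowly above the highest Bama library (6524), and the breeds lay closer together than in CPM. The share of all genes with that pattern in FPKM was not computed. The transcript length implied by the counts and FPKM of this row ran from 420 to 515 bases between libraries.

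The identity of the row carries a limit. Its description is metallothionein-1E-like, and its NCBI number belongs to the RefSeq locus LOC102166944, which lies beside the RefSeq gene named MT1A. In the RefSeq order on chromosome 6, MT4 is followed by MT3, MT-2B, MT1D, LOC100739663, LOC102166944 and MT1A. A further RefSeq locus, LOC110260926, overlaps MT1D. The counts of the row were fractional in 12 of 12 libraries, as were those of the MT1D row, as happens where a counter divides reads among near-identical copies, so the level of each alone is uncertain.

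The other metallothioneins were described beside MT1A. The list that holds them was chosen with earlier results of these data known, and the MT1D row may share reads with MT1A. A test of MT1D is therefore not independent of the choice of MT1A. The row matched to RefSeq MT1D (ENSSSCG00000024911, metallothionein-1E) ranked 2 in mean FPKM in each of the 4 groups. It had 13634, 13656 and 8094 CPM in Hezuo cold and 14302, 20101 and 13378 CPM in Hezuo room, against 3860, 6639 and 4117 CPM in Bama cold and 6826, 6980 and 7221 CPM in Bama room. All 6 Hezuo libraries again lay above all 6 Bama libraries, with means of 11795 ± 3205, 15927 ± 3644, 4872 ± 1536 and 7009 ± 199 CPM for Hezuo cold, Hezuo room, Bama cold and Bama room (SD, n = 3).

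MT1D was higher in Hezuo than in Bama pigs in the cold, by 1.28 ± 0.28 on the log2 scale (edgeR quasi-likelihood adjusted p = 0.0344), where 2.76% of all genes tested were called. At room temperature the difference was 1.18 ± 0.28, which edgeR did not call (adjusted p = 0.0574) and DESeq2 did (adjusted p = 0.000631). DESeq2 also called the difference in the cold (adjusted p = 9.36e-05). The call in the cold was lost in 6 of 12 fits that each left out 1 library, and in the fit of the 2 groups compared alone (adjusted p = 0.107). The adjusted p was 0.102 without Hezuo cold 1, 0.0858 without Hezuo cold 2, 0.0537 without Hezuo room 1, 0.125 without Bama cold 1, 0.0737 without Bama cold 3 and 0.051 without Bama room 1. For cold over room, MT1D had -0.43 ± 0.27 in Hezuo (adjusted p = 0.452) and -0.52 ± 0.27 in Bama (adjusted p = 0.379), and neither passed.

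The row called MT1X here (ENSSSCG00000030300) has that name in Ensembl, MT-2B in RefSeq and the description metallothionein-2A. It had 1769, 2121 and 2075 CPM in Hezuo cold, 2741, 2014 and 1851 in Hezuo room, 1344, 1824 and 1092 in Bama cold, and 1374, 1384 and 1257 in Bama room. The breeds overlapped in the cold and did not at room temperature, where 13% of genes had all Hezuo libraries higher. Hezuo over Bama was 0.49 ± 0.21 in the cold (edgeR adjusted p = 0.217) and 0.72 ± 0.21 at room temperature (edgeR adjusted p = 0.107). DESeq2 called it at room temperature (adjusted p = 0.0147) and not in the cold (adjusted p = 0.122).

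MT3, the form best known from brain, was far less abundant per length, with mean FPKM of 160 in Hezuo cold, 307 in Hezuo room, 78.9 in Bama cold and 87 in Bama room. It had 186, 113 and 85.2 CPM in Hezuo cold, 236, 244 and 299 in Hezuo room, 61, 62.6 and 30.8 in Bama cold, and 25.9, 122 and 43.7 in Bama room. The Hezuo cold libraries lay below the Hezuo room libraries without overlap, as 10.9% of genes did, with a log2 fold change of -1.02 ± 0.51 that did not pass (edgeR adjusted p = 0.351). Hezuo over Bama was 1.31 ± 0.51 in the cold (edgeR adjusted p = 0.176, DESeq2 0.0535) and 2.02 ± 0.52 at room temperature (edgeR adjusted p = 0.0813, DESeq2 0.00117), with no overlap at either temperature (12.3% of genes had all Hezuo libraries higher in the cold). MT4, known in mice from stratified epithelia, never exceeded 9 counts in a library and was not tested.

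Summed over the rows, metallothionein made up 1.68% ± 0.32 of all gene counts in Hezuo cold and 2.06% ± 0.33 in Hezuo room, against 0.96% ± 0.28 in Bama cold and 1.08% ± 0.07 in Bama room (SD, n = 3). MT1A supplied 23.2% ± 5.67 of that sum in Hezuo cold, 19.98% ± 2.23 in Hezuo room, 23.9% ± 4.40 in Bama cold and 19.2% ± 0.59 in Bama room. The sum does not depend on how shared reads were divided among these rows.

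**Figure D1:**
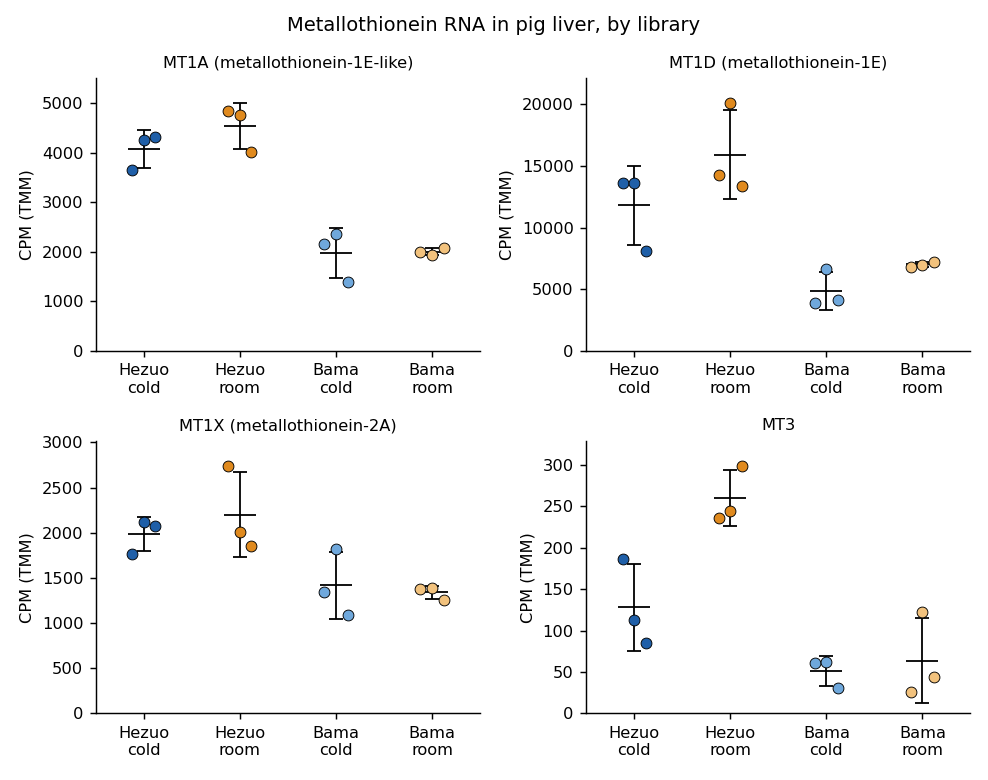
Metallothionein RNA in CPM (vertical axes, starting at 0) in the 4 groups; each point is 1 pig, horizontal bars are means and error bars SD (n = 3). The 6 Hezuo points of MT1A and of MT1D lie above the 6 Bama points, while those of MT1X and MT3 overlap between the breeds.

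Across the 12 libraries, the log2 CPM of MT1A had a Pearson r of 0.92 with MT1X, 0.87 with MT1D and 0.81 with MT3. Once each group's mean was removed, r was 0.80, 0.28 and 0.14 for the same genes. The libraries share their depth and scaling, and MT1A and MT1D may share reads, so these are descriptions only. With MTF1, SLC30A1 and the SLC39A14 row, MT1A had r of -0.40, 0.12 and 0.34.

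The circRNAs assigned to MT1A also differed between the breeds, and 1 of them held most of the counts. Of 676 back-splice counts over the 6 circRNAs, 80.5% belonged to novel_circ_012717, which the deposited table classes as antisense. It lies at chr6:18661906-18667566 on the minus strand (coordinates as deposited, genome build not given in the sources used here), and its spliced length of 5661 bases equals its span. Its start falls in the RefSeq locus LOC102166944 and its end in no RefSeq gene. Library preparation digested the second cDNA strand per the labels' protocols, which keeps the strand of each read.

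This antisense circRNA had 86, 89 and 77 back-splice counts in Hezuo cold and 71, 138 and 83 in Hezuo room, against 0, 0 and 0 in Bama cold and 0, 0 and 0 in Bama room. It was thus detected in 6 of 6 Hezuo and 0 of 6 Bama libraries. Of all circRNAs, 8, or 0.0331%, showed that pattern, and 9, or 0.0372%, showed the reverse one. Pooled over libraries, it had 544 of 278637 back-splice counts in Hezuo and 0 of 347343 in Bama, where 0 counts allow up to 8.64 RPM, which scales a count to the back-splice total (3 counts over the pool, counting error only). The pooled Hezuo level of 1952.4 RPM was 226-fold above that limit. The limit does not cover the spread between pigs. Nor does it cover how a junction was placed among near-identical metallothionein copies, or how each breed's sequence differs from the reference. None of these was tested.

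Among the 885 antisense circRNAs it ranked 1 by Hezuo counts, and it ranked 37 among all 24177. The next of the 8 circRNAs with its pattern had 71 Hezuo counts. Its deposited RPM was 2020.6, 2215.9 and 1475.3 in Hezuo cold, against 1400.3, 2995.4 and 1768.2 in Hezuo room. The temperatures overlapped, with means of 1903.9 ± 383.8 in Hezuo cold and 2054.6 ± 835.2 in Hezuo room (SD, n = 3).

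A second antisense circRNA, novel_circ_003485, has ends shifted by 30 and 31 bases from those of the first, at chr6:18661936-18667597. It had 6 counts in Hezuo cold 3, 4 in Bama cold 2, and 1 and 3 in Bama room 1 and 2, with 0 elsewhere. The third, novel_circ_001838, spans chr6:18657197-18673289 from LOC100739663 to the RefSeq gene MT1A. It was found in Bama libraries alone, with 8, 0 and 7 counts in the cold and 0, 26 and 0 at room temperature. In sum, antisense counts were 550 in Hezuo and 49 in Bama.

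The 3 sense circRNAs were sparse. The pair that shares a start, novel_circ_012581 (chr6:18661543-18666593) and novel_circ_005794 (chr6:18661543-18666693), had 9, 20 and 5 counts in Hezuo cold and 8, 5 and 18 in Hezuo room, against 1, 0 and 6 in Bama cold and 0, 3 and 0 in Bama room. The last, novel_circ_016814, had 2 counts, both in Hezuo cold 3. Sense counts came to 67 in Hezuo and 10 in Bama, and at this depth single libraries cannot be ranked. Each sense and antisense circRNA overlaps others in position, so they are not separate measurements of the locus.

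**Figure D2:**
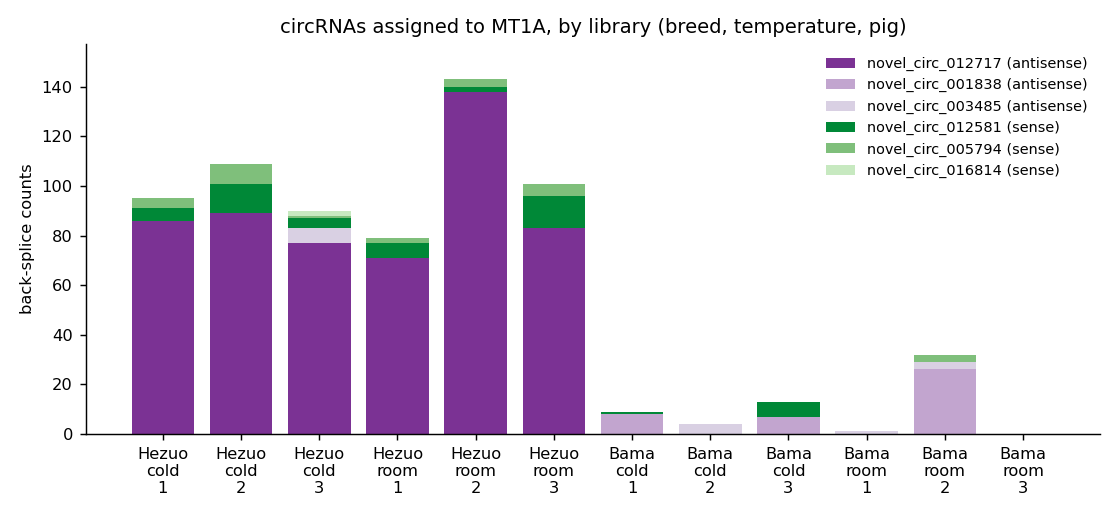
Back-splice counts (vertical axis, starting at 0) of the 6 circRNAs assigned to MT1A, stacked for each of the 12 libraries (horizontal axis), with antisense circRNAs in purple and sense circRNAs in green. The darkest purple, novel_circ_012717, fills most of each Hezuo bar with 71 to 138 counts and is at 0 in the Bama bars.

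MTF1, the zinc sensor, was expressed at a low level and varied little. The row (ENSSSCG00000037516) had 22.1, 27.1 and 22.9 CPM in Hezuo cold, 21.1, 21.4 and 22.7 in Hezuo room, 28.1, 25.6 and 27 in Bama cold, and 24.1, 21.9 and 21.1 in Bama room. In Bama pigs each cold library lay above each room library, as 11.2% of genes did in that direction. In Hezuo pigs the temperatures overlapped, and so did the breeds over all 12 libraries.

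Cold over room for MTF1 was 0.14 ± 0.11 on the log2 scale in Hezuo and 0.27 ± 0.11 in Bama. Hezuo over Bama was -0.16 ± 0.11 in the cold and -0.04 ± 0.11 at room temperature. Without Hezuo cold 2, the values were 0.05 for cold over room in Hezuo and -0.27 for Hezuo over Bama in the cold. Its mean FPKM lay between 3.91 in Hezuo room and 6.45 in Bama cold. A single MTF1 circRNA, novel_circ_022749, made of 1 exon, had 12 counts in Hezuo and 6 in Bama over both temperatures.

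SLC30A1, the zinc exporter and a textbook MTF1 target, had a higher mean in the cold than at room temperature in both breeds. The row (ENSSSCG00000039472) had 213, 244 and 203 CPM in Hezuo cold, 152, 128 and 209 in Hezuo room, 207, 212 and 192 in Bama cold, and 121, 183 and 125 in Bama room. In Bama pigs the temperatures did not overlap, a pattern that 11.2% of genes showed with cold higher. In Hezuo pigs 1 room library (209) lay within the range of the cold ones.

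The log2 fold change of SLC30A1 for cold over room was 0.43 ± 0.20 in Hezuo, 0.51 ± 0.20 in Bama and 0.47 ± 0.14 as the mean of both breeds. Without Hezuo room 3, the value in Hezuo was 0.66. The responses of the breeds differed by -0.08 ± 0.28. Hezuo over Bama was 0.11 ± 0.20 in the cold and 0.19 ± 0.20 at room temperature. Scaled by library totals alone, which moved the median of all genes to -0.32 in the cold and -0.22 at room temperature, they were -0.20 and -0.01, or 0.12 and 0.21 above that median. Without Hezuo room 3 the difference at room temperature was -0.04. No circRNA was assigned to SLC30A1.

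The SLC39A14 row (ENSSSCG00000032622, symbol PPP3CC) had 277, 362 and 601 CPM in Hezuo cold, 291, 145 and 207 in Hezuo room, 294, 195 and 223 in Bama cold, and 223, 204 and 159 in Bama room. Hezuo cold 3 stood above the other 11 libraries, and the groups overlapped in every comparison of 2 groups. Cold over room was 0.95 ± 0.31 on the log2 scale in Hezuo, and 0.59 without Hezuo cold 3. It was 0.28 ± 0.31 in Bama, and 0.10 without Bama cold 1. Hezuo over Bama was 0.80 ± 0.31 in the cold, and 0.42 without Hezuo cold 3, and 0.13 ± 0.31 at room temperature. With DDX3Y as a covariate, the value at room temperature was -0.27, and without Hezuo room 1 it was -0.16. Scaled by library totals alone it was -0.08, or 0.14 above the median of all genes.

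The row may hold reads of both SLC39A14 and PPP3CC, the gene of a calcineurin catalytic subunit. Its 12 circRNAs fall in a pair of separate stretches of chromosome 14. The 6 within chr14:6671194-6685222 lie in RefSeq SLC39A14 and had 49 counts in Hezuo cold, 46 in Hezuo room, 93 in Bama cold and 72 in Bama room. The 6 within chr14:6745390-6793447 lie in RefSeq PPP3CC and had 50 counts in Hezuo cold, 39 in Hezuo room, 66 in Bama cold and 59 in Bama room. The deposited counts do not separate the linear RNAs of these genes.

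**Figure D3:**
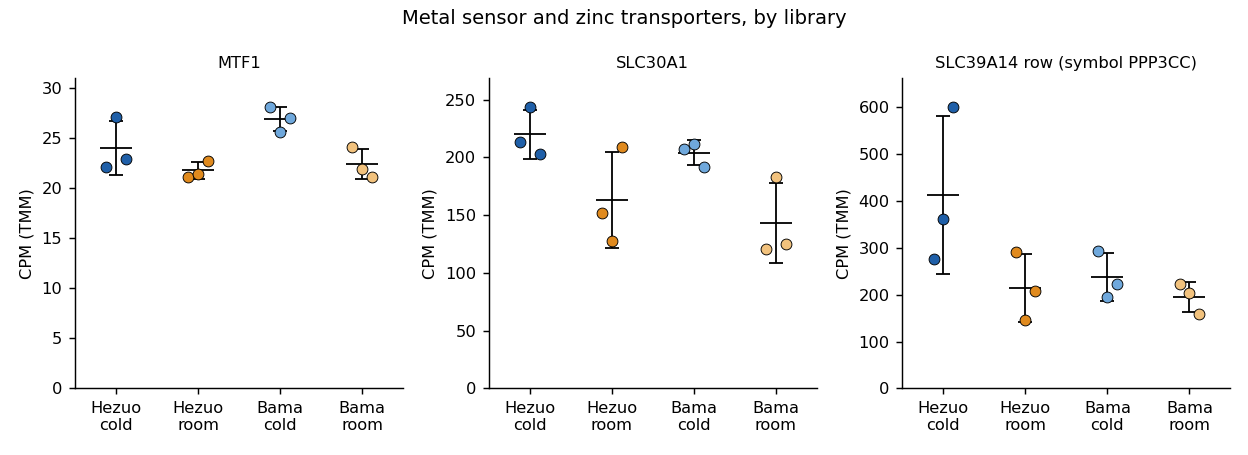
CPM (vertical axes, starting at 0) of MTF1, SLC30A1 and the SLC39A14 row in the 4 groups; each point is 1 pig, horizontal bars are means and error bars SD (n = 3). Hezuo cold 3, at 601 CPM, raises the SLC39A14 mean of Hezuo cold. The 3 Bama cold points of MTF1 and SLC30A1 lie above the Bama room points.

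**Figure D4:**
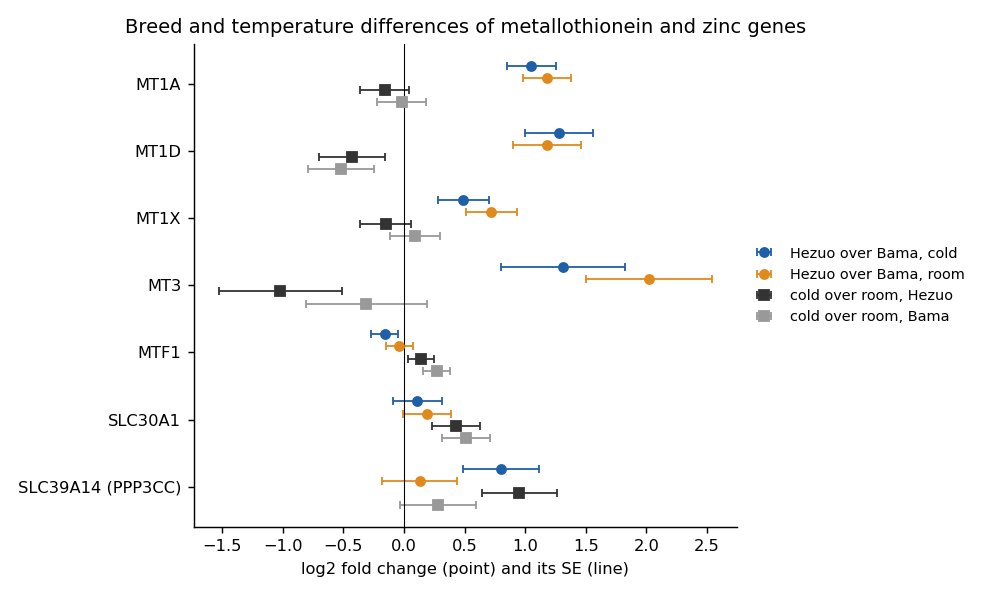
Log2 fold changes (points) with their SE (lines) of the metallothioneins and zinc genes for Hezuo over Bama (circles) and cold over room (squares). MT1A lies at 1.05 and 1.18 for the breed and at -0.16 and -0.02 for cold, while SLC30A1 lies at 0.43 and 0.51 for cold.

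Among all zinc transporters, SLC30A1 and the SLC39A14 row were of high rank. By mean FPKM over the 12 libraries, the SLC39A14 row led with 63.6, followed by the importers SLC39A5 (52.1 FPKM) and SLC39A8 (30.8 FPKM) and then by SLC30A1 (27.5 FPKM), the most abundant exporter. SLC39A1 (22.4 FPKM), SLC30A5 (20.2 FPKM), SLC39A7 (17.7 FPKM), SLC39A9 (17.5 FPKM), SLC30A6 (12 FPKM) and SLC39A11 (10.8 FPKM) came next. SLC30A10, a manganese exporter, averaged 9.87 FPKM, SLC30A9 8.29, SLC30A7 7.33, SLC39A13 5.83, SLC39A6 3.69, SLC39A3 3.47 and SLC39A10 2.77 FPKM. SLC30A4 (1.51 FPKM), SLC39A4 (1.31 FPKM) and SLC30A2 (0.545 FPKM) were near the bottom, and SLC30A3, SLC30A8, SLC39A2 and SLC39A12 had too few counts to be tested. The ranges of neighbours in this order overlapped for most pairs, as the plot of transporter FPKM shows.

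Of the transporters outside the members, SLC39A10, an importer of the plasma membrane, was the 1 that edgeR called. It had 11.5, 10.6 and 8.24 CPM in Hezuo cold and 12.2, 18.4 and 13.7 in Hezuo room, and 13.9, 14.2 and 13.8 in Bama cold and 23.3, 20 and 21.3 in Bama room. The cold libraries lay below the room libraries in each breed, as 10.9% of genes did in Hezuo and 10.2% in Bama. The mean response to cold fell by 0.59 ± 0.12 on the log2 scale (log2 fold change -0.59, edgeR adjusted p = 0.026), a call lost in 7 of 12 fits that left out 1 library, with adjusted p up to 0.0634 (without Bama room 3). SLC30A6 and SLC30A7, which load zinc into the secretory pathway, differed between Hezuo and Bama in the cold by 0.55 ± 0.15 (adjusted p = 0.0628) and 0.44 ± 0.14 (adjusted p = 0.104) and did not pass in edgeR. DESeq2 called SLC30A6 there (adjusted p = 0.0142), and for cold over room in Hezuo it called SLC30A6 (0.51 in both tools; DESeq2 adjusted p = 0.0484, edgeR 0.154) and SLC30A7 (0.58 ± 0.14 in edgeR; DESeq2 adjusted p = 0.0124, edgeR 0.111). For the difference between the responses of the breeds, DESeq2 called SLC30A7 (adjusted p = 0.0284) and edgeR did not (0.83 ± 0.20, adjusted p = 0.241).

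**Figure D5:**
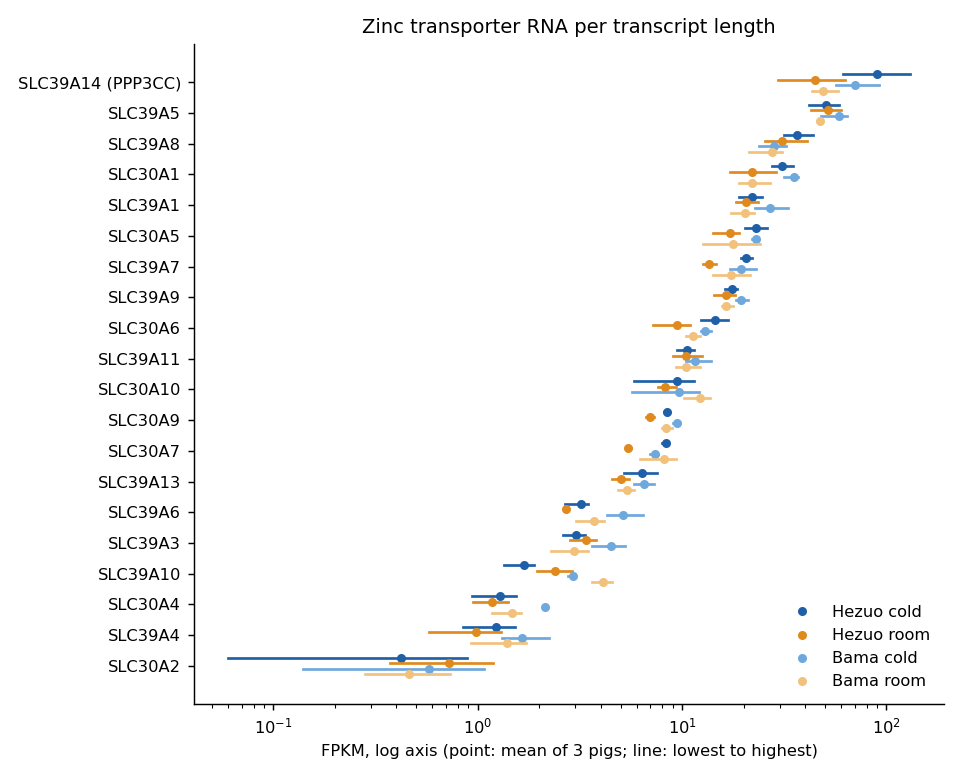
Zinc transporter RNA in FPKM (horizontal log axis), ordered by the mean over 12 libraries; points are means of 3 pigs and lines run from the lowest to the highest pig of each group. The SLC39A14 row (63.6 FPKM on average) and SLC30A1 (27.5 FPKM) sit near the top, and SLC39A10 shows lower values in the cold groups than in the room groups of the same breed.

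Over the lists of metallothioneins, zinc exporters, zinc importers, metal sensing with MTF1 targets, and copper handling, 50 genes other than the members had a row and 43 were tested. For Hezuo over Bama in the cold, 2 of 43 were called, both higher (all genes 1.8% higher), and 14 had an unadjusted p below 0.05, as 21.1% of all genes did. The 2 were SCO1 and MT1D, and the test of MT1D is not independent of the choice of MT1A. Scaled by library totals alone, which moved the median of all genes to -0.32, 1 of the 43 was called higher and 7 lower. At room temperature 0 were called, where 1.08% of all genes were. Of the 43, 10 were below an unadjusted p of 0.05 (all genes 19.8%) and 8 were called by DESeq2 (all genes 7.48%). For cold over room, 0 were called in Hezuo (all genes 0.281%) and 1 in Bama (all genes 0.924%). In Hezuo 5 were below an unadjusted p of 0.05, against 15.6% of all genes, and DESeq2 called 2, against 3.84%. For the mean response to cold, 2 were higher and 1 lower (all genes 3.89%, or 1.95% higher and 1.94% lower). There 13 were below an unadjusted p of 0.05 (all genes 23.5%) and DESeq2 called 7 (all genes 10.8%). For the difference between the responses of the breeds, edgeR called 0 (all genes 0.00739%) and DESeq2 called 1 (all genes 0.983%). An unadjusted p below 0.05 was found for 5, against 8.02% of all genes. The median log2 fold change of the 43 genes ranged from -0.03 to 0.12 over the 6 comparisons, against -0.01 to 0.00 for all genes.

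Apart from MT1D and SLC39A10, the metal genes called were SCO1, GCLM and CBS. SCO1, which delivers copper to cytochrome c oxidase, had 32.7, 28.6 and 33.5 CPM in Hezuo cold against 19.4, 19.0 and 20.2 CPM in Bama cold. That was 0.69 ± 0.17 higher on the log2 scale (edgeR adjusted p = 0.0494), a call lost in 11 of 12 fits that left out 1 library (up to 0.147, without Bama cold 1). GCLM, a subunit of the enzyme that starts glutathione synthesis, rose with cold by 0.81 ± 0.18 as the mean of breeds (edgeR adjusted p = 0.0365). Its means were 48.4 ± 10.6 CPM in Hezuo cold, 32.9 ± 11 in Hezuo room, 54.4 ± 12.8 in Bama cold and 26.0 ± 3.90 in Bama room (SD, n = 3). That call was lost in 7 of 12 such fits, up to 0.0855 without Bama room 3.

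CBS, which joins homocysteine to serine on the way to cysteine, had 290, 308 and 237 CPM in Bama cold against 79.8, 158 and 79.7 CPM in Bama room. In Hezuo pigs it had 269, 333 and 232 CPM in the cold and 233, 202 and 241 CPM at room temperature, where the temperatures overlapped. Cold over room was 1.39 ± 0.26 in Bama (edgeR adjusted p = 0.0343) and 0.85 ± 0.18 as the mean of breeds (adjusted p = 0.0301). Each call was lost in 7 of 12 fits that left out 1 library, up to 0.122 (without Bama room 3) in Bama and 0.0749 (without Hezuo room 2 or Bama room 3) for the mean.

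Of 20 zinc-binding plasma proteins and zinc enzymes, all tested, 0 were called for cold over room in either breed alone, with 8 in Hezuo and 7 in Bama below an unadjusted p of 0.05 and 5 in each called by DESeq2. Of all genes, 15.6% in Hezuo and 15.8% in Bama were below that p, and DESeq2 called 3.84% and 5%. For the mean response to cold, 2 fell, as 1.94% of all genes did. There 9 were below an unadjusted p of 0.05 (all genes 23.5%) and DESeq2 called 6 (all genes 10.8%). CA3, a carbonic anhydrase, had 16.0, 11.3 and 9.1 CPM in Hezuo cold and 250, 239 and 321 in Hezuo room, and 0.0834, 2.48 and 1.84 in Bama cold and 2.73, 87.7 and 52.6 in Bama room. Its mean log2 fold change of -4.73 ± 0.75 (edgeR adjusted p = 0.0137) passed in each of the 12 fits that left out 1 library. AHSG, the plasma protein fetuin-A, changed by -0.91 ± 0.22 (adjusted p = 0.042, lost in 9 of 12 such fits, up to 0.105 without Bama room 3). AHSG is itself among the 8 hepatocyte markers above.

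Between the breeds, 2 of these 20 genes were called at each temperature, all higher in Hezuo, where edgeR called 1.08% of all genes at room temperature and 2.76% in the cold (1.8% higher). DESeq2 called 5 of the 20 at each temperature, and 7.48% of all genes at room temperature and 8.81% in the cold. At room temperature they were CA5A, a mitochondrial carbonic anhydrase (0.82 ± 0.15, edgeR adjusted p = 0.0381), and ALAD, a zinc enzyme of haem synthesis (0.81 ± 0.14, adjusted p = 0.032). In the cold they were FBP1, a gluconeogenic phosphatase (1.20 ± 0.25, adjusted p = 0.0316), and DPYS, a zinc enzyme of pyrimidine breakdown (1.14 ± 0.27, adjusted p = 0.0477). The calls were lost in 5, 4, 6 and 10 of 12 fits that left out 1 library for CA5A, ALAD, FBP1 and DPYS. The highest adjusted p was 0.147 for CA5A and 0.135 for ALAD, both without Bama room 1, and 0.121 for FBP1 and 0.12 for DPYS, both without Bama cold 1. The median of the 20 genes was 0.58 in the cold and 0.62 at room temperature, against -0.01 and -0.00 for all genes. For the difference between the responses of the breeds, edgeR and DESeq2 called 0 of the 20, and 5 had an unadjusted p below 0.05 (all genes 8.02%).

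Genes that report glucocorticoid action, an input known to raise metallothionein RNA, were read from a list of 12. Of these, 2 were called for the mean response to cold, 1 for cold over room in Bama and 1 for Hezuo over Bama in the cold, where edgeR called 3.89%, 0.924% and 2.76% of all genes. In the other 3 comparisons edgeR called 0, with 1 to 3 genes below an unadjusted p of 0.05 and 0 or 1 called by DESeq2. For all genes these shares were 8.02% to 19.8% and 0.983% to 7.48%. FKBP5, a chaperone induced by the glucocorticoid receptor, had 49.5, 87.3 and 118 CPM in Hezuo cold and 50.5, 31.7 and 37.5 in Hezuo room, and 164, 82.6 and 155 in Bama cold and 36.1, 35.7 and 41.4 in Bama room. It rose with cold by 1.46 ± 0.23 as the mean of breeds (edgeR adjusted p = 0.0125), a call kept in each of the 12 fits that left out 1 library. In Bama alone it rose by 1.83 ± 0.33 (adjusted p = 0.033, lost in 6 of 12 such fits, up to 0.102 without Bama room 1 or 3).

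KLF9, another target of that receptor, rose by 0.70 ± 0.16 as the mean of breeds (edgeR adjusted p = 0.037, lost in 7 of 12 fits, up to 0.0887 without Bama room 3). For that mean response, 8 of the 12 genes had a positive log2 fold change, with a median of 0.23. Of all 13532 genes, 6587 were positive, with a median of -0.01. TSC22D3, on the same list, had a lower mean in the cold in both breeds. PER1 and TAT had a lower mean in the cold in Hezuo and a higher one in Bama. HSD11B1, which regenerates active glucocorticoid, was higher in Hezuo than in Bama in the cold by 0.94 ± 0.18 (adjusted p = 0.0261, lost in 3 of 12 fits, up to 0.0953 without Bama cold 1). The receptor gene NR3C1 had log2 fold changes for cold over room of -0.33 ± 0.15 in Hezuo (adjusted p = 0.323) and -0.09 ± 0.15 in Bama (adjusted p = 0.823). MT1A, in the same libraries, had a mean response to cold of -0.09 ± 0.14. A link of this list to MT1A was not tested.

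Of 19 genes of interleukin-6 and STAT3 signalling and its acute-phase targets, 1 was called, for the mean response to cold, where 3.89% of all genes were. In that comparison 10 were below an unadjusted p of 0.05 (all genes 23.5%) and DESeq2 called 4 (all genes 10.8%). Of the 19, 15 had a positive log2 fold change, with a median of 0.57 (all genes 6587 of 13532, median -0.01). In the other 5 comparisons edgeR called 0, with 1 to 7 genes below an unadjusted p of 0.05 and 1 or 2 called by DESeq2. For all genes these shares were 8.02% to 21.1% and 0.983% to 8.81%. The gene that edgeR called was ORM1, an acute-phase plasma protein, at -1.28 ± 0.31 for the mean response (edgeR adjusted p = 0.0451). That call was lost in 10 of 12 fits that left out 1 library, up to 0.108 without Hezuo room 2. STAT3 had cold over room values of 0.61 ± 0.38 in Hezuo (adjusted p = 0.449) and 0.68 ± 0.38 in Bama (adjusted p = 0.417). The feedback gene SOCS3 had 1.28 ± 0.82 in Hezuo (adjusted p = 0.467) and 0.06 ± 0.80 in Bama (adjusted p = 0.981). The receptor gene IL6R had -0.50 ± 0.19 in Hezuo (adjusted p = 0.245) and -0.41 ± 0.19 in Bama (adjusted p = 0.34). SOCS3 was at 115 CPM in Hezuo cold 3, the library with the highest SLC39A14 row, against 13.2 and 34.1 CPM in Hezuo cold 1 and 2. Within Hezuo cold, some genes of the list were highest in that library, as STAT3 was, and others in Hezuo cold 2, among them ITIH4, LBP and SAA2. A link of this list to the SLC39A14 row was not tested.

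Of the 17 calls named above, 14 were lost with DDX3Y as a covariate, and MT1D, FBP1 and HSD11B1 kept theirs. The covariate varied within Bama cold alone, so these values are not an adjustment for Y-linked RNA across the groups. For the mean response to cold, the edgeR adjusted p with the covariate was 0.122 for FKBP5, 0.2 for CA3, 0.093 for KLF9, 0.169 for CBS, 0.213 for SLC39A10, 0.283 for GCLM, 0.212 for ORM1 and 0.317 for AHSG. For cold over room in Bama it was 0.421 for CBS and 0.84 for FKBP5. For Hezuo over Bama it was 0.119 for SCO1 and 0.114 for DPYS in the cold, and 0.356 for both CA5A and ALAD at room temperature. In the fit of the groups compared alone, the calls of CBS (0.137) and FKBP5 (0.0818) in Bama and of FBP1 (0.0683), HSD11B1 (0.0852) and SCO1 (0.0505) in the cold were lost as well.

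The genes whose levels were most like those of each member were ranked by Pearson r of log2 CPM over the 12 libraries, which share breed, temperature and scaling. For MT1A they were IGF1 (r = 0.963), the growth factor that the liver secretes, TFDP2 (0.953), ACCS (0.945), HDDC2 (0.929) and AADAT (0.929). IGF1 averaged 43.2 CPM in Hezuo cold and 48.6 in Hezuo room, against 8.08 in Bama cold and 9.83 in Bama room. AADAT, an enzyme of lysine and kynurenine breakdown, averaged 120 CPM in Hezuo cold and 48.8 in Hezuo room, against 0.0885 in Bama cold and 0.0649 in Bama room.

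The lowest r with MT1A were those of ZNF667 (-0.955), GTF2H5 (-0.919), CA5B (-0.916), ZNF583 (-0.910) and G2E3 (-0.899). With each group's mean removed, the highest r were those of HPSE (0.948), MAP3K13 (0.947), HEXA (0.947), JADE1 (0.918) and PEX10 (0.918), and that of IGF1 was 0.540. The genes most like MTF1 were RNPS1 (0.916), CTSC (0.907) and HGS (0.906). Those most like SLC30A1 were NDFIP2 (0.934), SLC1A1 (0.920) and KIF1A (0.910). For the SLC39A14 row they were CEBPB (0.939), a transcription factor of the acute-phase response, INTS7 (0.937) and PQLC1 (0.931).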

How the data were processed

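Liver RNA depleted of ribosomal RNA was sequenced, and fastp, which trims and filters reads, is listed per the submitters' processing notes. What aligned and counted the reads, and against which build, is not given in the sources used here. The authors deposited estimated counts per gene, of which 9.48% of nonzero values were fractional (rounded here), with FPKM beside them, and back-splice counts per circRNA with RPM beside them. Names missing in the files came from Ensembl names or RefSeq (Sscrofa11.1), used for names and gene order only.

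Genes were tested with edgeR 4.0.16 in R 4.3.3: TMM scaling, filterByExpr (minimum count 10, minimum total 15), a robust quasi-likelihood fit of 4 groups over 12 libraries (8 residual degrees of freedom), 6 contrasts, and Benjamini-Hochberg adjustment over 13532 genes, called at an adjusted p below 0.05. DESeq2 1.42.0 was an alternative. Fits were tested on simulated data. The members and lists were chosen with earlier results of these data known. The text names each called gene of 8 pathway lists, the detected zinc transporters and metallothioneins, NR3C1, FKBP5, STAT3, IL6R and SOCS3, and the genes most like each member (mean CPM of at least 1). Replicates of a group correlated at r = 0.963 to 0.977 and differed beyond sampling noise. Alternatives are given after the report.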

Additional observations from a re-analysis of the deposited data

How the results depend on the processing

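No called value changed sign in the alternatives run, and the MT1A difference between the breeds was positive in 40 of 40 alternative values, from 0.73 (scaling by library totals, Hezuo over Bama in the cold) to 1.60 (DDX3Y as a covariate, at room temperature). With DDX3Y as a covariate, cold over room for MT1A in Bama was 0.24 and the difference between the responses -0.39. That covariate varied within Bama cold alone. Scaling by library totals without TMM, chosen after seeing the data, moved the median of all genes to -0.32 for Hezuo over Bama in the cold, -0.22 at room temperature and 0.14 for cold over room in Bama, so that the MT1A differences relative to all genes stayed close to those reported. Leaving out 1 library gave MT1A values of 0.86 to 1.20 for Hezuo over Bama in the cold, 1.13 to 1.26 at room temperature, -0.23 to -0.07 for cold over room in Hezuo, -0.17 to 0.17 in Bama, -0.33 to 0.02 for the difference between responses and -0.16 to 0.01 for the mean response.

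Counts of called metal genes, with MT1D among the genes counted, moved more. For Hezuo over Bama in the cold (2), the count was 1 with no filter, 1 with DDX3Y as a covariate, 0 with only the groups compared, 5 with DESeq2, 8 with library totals (1 higher and 7 lower, against 2 higher and 0 lower) and 0 to 2 without 1 library. At room temperature (0) it was 1 with only the groups compared, 8 with DESeq2, 2 with library totals and 0 to 3 without 1 library. For cold over room in Bama (1) it was 0 with DDX3Y as a covariate, 0 with only the groups compared, 3 with DESeq2, 2 with library totals and 0 to 1 without 1 library. In Hezuo (0) it was 2 with DESeq2 and 0 to 1 without 1 library. For the mean response (3) it was 0 with DDX3Y as a covariate, 7 with DESeq2, 5 with library totals and 0 to 3 without 1 library. For the difference between responses (0) it was 1 with DESeq2 and 0 to 1 without 1 library. In the same order of comparisons, DESeq2 called 8.81%, 7.48%, 5%, 3.84%, 10.8% and 0.983% of all genes. Of 17 calls named in the report, 2 held in each fit that left out 1 library. With no filter on low counts ORM1 (adjusted p = 0.0525) and SCO1 (adjusted p = 0.0527) were lost, and with library totals CA5A (adjusted p = 0.0681) and SCO1 (adjusted p = 0.104). On log2(FPKM + 1), 2 of the 5 genes most like MT1A remained among its top 5. The cause of these changes was not tested.

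Libraries of the same replicate number did not deviate together: the correlation of their deviations was -0.198 to 0.148 over 18 pairs (median -0.001). With the replicate number as a block, MT1A had 1.07 for Hezuo over Bama in the cold, 1.17 at room temperature, -0.15 for cold over room in Hezuo and -0.04 in Bama, -0.10 for the difference between responses and -0.10 for the mean response. The block moved the count of called metal genes for Hezuo over Bama in the cold to 1, and 7 of the 17 named calls were lost under it. With 3 pigs a group, and with 0 to 138 counts per library for the circRNAs, smaller differences were not detectable.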
